A study of Homo sapiens with 3 samples.

Results

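The replacement histone variants are histone genes that cells also express outside S phase. Here 10 of them were followed under the names H1F0, H1FX, H2AFJ, H2AFV, H2AFX, H2AFY, H2AFY2, H2AFZ, H3F3A and H3F3B. They were taken by gene name from the array annotation, with every probe that is not a control, and all 10 of 10 were present among 27274 gene names, carried by 15 of 34127 probes. The RNA came from HepG2 cells, an established human hepatocellular carcinoma line with wild-type p53, grown for 30 h without etoposide (control), with 10 μM etoposide (the low dose) or with 100 μM etoposide (the high dose). Etoposide traps topoisomerase II on DNA and so causes double-strand breaks, and in the design of the study the low dose stands for senescence and the high dose for apoptosis. The sample labels call the control untreated, while the study elsewhere names the vehicle DMSO. Each condition was 1 sample on 1 single-color Agilent array, so no value has a replicate check, no p-value is given, and every fold change describes these 3 arrays.

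Most histone mRNA comes from clustered genes that are switched on in S phase and whose transcripts end in a stem-loop instead of a poly(A) tail. Replacement variants lie outside those clusters, are mostly made from polyadenylated mRNA, and can be placed into chromatin without DNA replication. H3.3 is deposited at active genes and at telomeric and pericentric repeats, H2A.Z sits at promoters, macroH2A is enriched in silent chromatin, H2A.X is phosphorylated around DNA breaks, and the H1 variants bind the linker DNA between nucleosomes. Several of these proteins are known from studies of senescent cells, among them H2A.J and macroH2A.

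Signals are background-subtracted spot intensities as deposited. Fold changes were taken after dividing each array by its own 75th percentile over probes, which was 514, 536 and 432 from control to the high dose. Errors are SDs on the log2 scale expected between spots of 1 array, read from 987 probes spotted 10 times at a similar signal and combined over both arrays of a fold change, and they leave out any difference between cultures or RNA preparations. Of the 15 probes, 13 were well above background on all arrays and 1 on none. The array software called 58.1 to 59.1% of all probes well above background, and no spot was saturated. All 9 hepatocyte markers checked (ALB and AFP among them) were well above background in each condition, whereas of 9 leukocyte, fibroblast and endothelial markers 5 were in control cells, 5 at 10 μM and 6 at 100 μM. PTPRC, CD3E, CD14, PECAM1 and CDH5 were so on every array, and COL1A1, COL1A2 and DCN on none. The summed signal of those 9 other markers was 1369, 1732 and 2570 from control to the high dose, against at least 235058 for the hepatocyte markers. Most of that increase was CD14, a monocyte marker, at signals of 521, 1184 and 1847 (2.18-fold and 4.22-fold over control after scaling). The part of these markers in the results was not tested.

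At the low dose the variants lay close to control, with a median log2 fold change of -0.06 over the 10 genes and -0.04 over all 16664 genes tested. None of the 10 was past 2-fold in either direction, where 3.38% of all genes were higher and 1.61% lower by that much. H2AFX was the highest of the set and H1F0 the lowest, and the changes of 7 genes were within 2 SD of 0. For H1FX, H2AFY and H2AFY2 among those 7, that depended on the scaling. How many of all genes were within 2 SD was not counted, and their quartiles at the low dose were -0.25 and 0.22. At the high dose 9 of the 10 were below control, and the median was -0.60 against 0.10 over all 16779 genes tested. Past 2-fold, 2 variants were lower (H2AFZ and H2AFX) and 0 were higher, beside 3.71% and 6.84% of all genes. H2AFJ was the exception to the lower values and was 1.58-fold higher than control. Between the doses, 8 variants were higher at the low dose, and H2AFX and H2AFZ were so by more than 2-fold, as were 3.66% of 16688 genes, while 0 variants and 3.97% of genes were lower by that much.

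**Figure D1:**
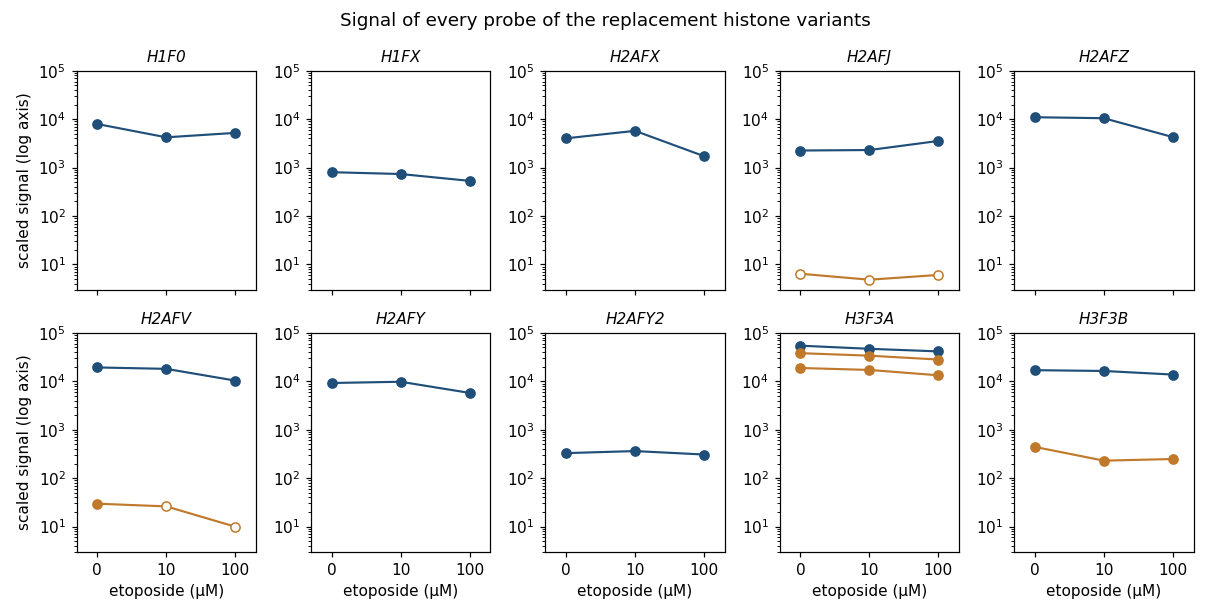
Signal of every probe of the 10 genes at 0, 10 and 100 μM etoposide, scaled to the 75th percentile of the control array, on a log axis with 1 point per array. Blue marks the brightest probe of a gene and orange its other probes, and open circles are signals not well above background; H2AFX peaks at the low dose, and H2AFJ is the only gene whose brightest probe is highest at the high dose.

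**Figure D2:**
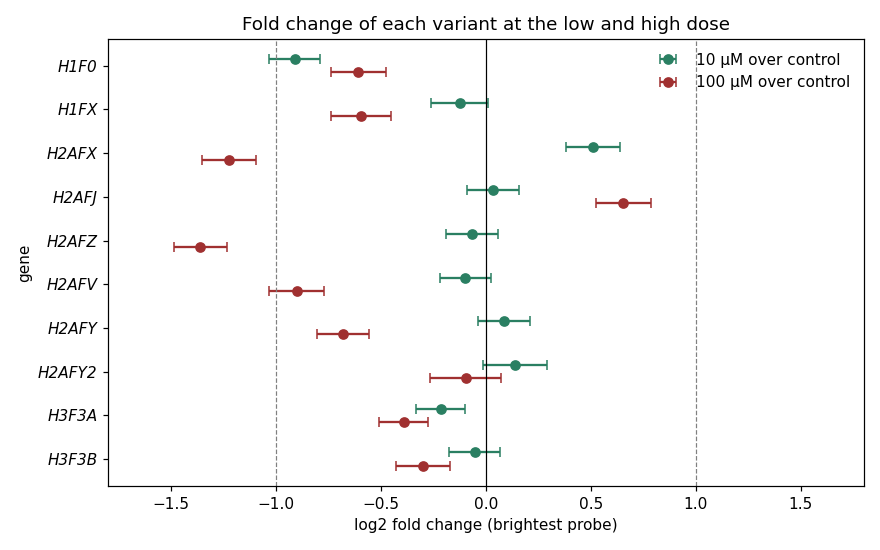
Log2 fold change of each gene (brightest probe) over control at the low and high dose; bars are 2 SD between spots and dashed lines mark 2-fold. H2AFZ (-1.36) and H2AFX (-1.22) lie past 2-fold at the high dose, and no gene does at the low dose.

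H2AFX encodes H2A.X, the variant that ATM, ATR and DNA-PK phosphorylate at double-strand breaks. Its probe (NM_002105, chromosome 11 of hg18 from 118469801 to 118469860) gave signals of 4029 without etoposide, 5994 at 10 μM and 1450 at 100 μM. It was thus brightest at the low dose and dimmest at the high dose. After scaling, the low dose was 1.43-fold above control (log2 fold change 0.51 ± 0.06) and the high dose 2.34-fold below it (-1.22 ± 0.06). The direct comparison of the doses gave 3.33-fold, at the 98.4 percentile of all genes. The array measured mRNA, so neither the H2A.X protein nor its phosphorylation is covered. Labeling in this kit starts from poly(A), so any H2AFX mRNA without a poly(A) tail is covered at most in part. Cells that differ in cycle phase cannot be separated in bulk RNA, and fewer cells expressing a gene cannot be told apart from less RNA per cell.

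H2AFZ encodes H2A.Z, a variant found beside transcription start sites, and H2AFV encodes its closely related second form. H2AFZ (NM_002106), whose 60-base probe is placed by the files on chromosome 4 of hg18 from 101088263 to 101088290, had signals of 10974, 10933 and 3591 at 0, 10 and 100 μM. The first pair was indistinguishable within the spot error (log2 fold change -0.07 ± 0.06), and the high dose was 2.57-fold below control (-1.36 ± 0.06), the lowest value among the variants. H2AFV, by its bright probe for transcript variant 1 (NM_012412, chromosome 7 of hg18 from 44840397 to 44840456), had signals of 19342, 18863 and 8699. It was likewise near control at the low dose (-0.10 ± 0.06) and was 1.87-fold lower at the high dose (-0.90 ± 0.07). This value was past 2-fold when the arrays were not scaled (-1.15) or were scaled to the median (-1.19) or to spike-in RNA (-1.07). With the median over all probes of the gene it was -0.55, but that median includes a bound from the dim probe described next. The probe of the NM_138635 transcript of H2AFV was near background, with a signal of 29.7 in control cells, and was at least 1.15-fold lower at the high dose. Both H2A.Z genes therefore had their lowest signal at the high dose, but by different amounts. The log2 fold change of H2AFZ at the high dose was below that of H2AFV by 0.46 ± 0.09, and at the low dose the corresponding difference was 0.03 ± 0.09. Scalings that shift a whole array leave such differences between genes unchanged, but quantile normalization can move them.

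The promoters of H2AFX and H2AFZ are shown because these genes passed 2-fold, and that of H2AFJ because it went the other way at the high dose. Each run is the 250 bases before the annotated start on the strand of the gene, from RefSeq on GRCh38.p14, matched by accession (9 of the 10 genes had an entry). Capitals mark the letters CCAAT, on the other strand ATTGG, the sequence that NF-Y binds, and, in H2AFX alone, TTCAAA, which is TTTGAA on the opposite strand, the core letters of the cell cycle homology region. The H2AFX window is chr11:119095466-119095715 (minus strand), that of H2AFZ is chr4:99950276-99950525 (minus strand) and that of H2AFJ is chr12:14774155-14774404 (plus strand).
H2AFX: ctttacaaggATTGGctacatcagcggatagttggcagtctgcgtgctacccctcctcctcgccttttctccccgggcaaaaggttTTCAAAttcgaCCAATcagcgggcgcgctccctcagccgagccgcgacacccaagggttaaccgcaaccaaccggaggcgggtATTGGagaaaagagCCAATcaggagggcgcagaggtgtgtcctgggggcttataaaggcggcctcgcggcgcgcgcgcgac
H2AFZ: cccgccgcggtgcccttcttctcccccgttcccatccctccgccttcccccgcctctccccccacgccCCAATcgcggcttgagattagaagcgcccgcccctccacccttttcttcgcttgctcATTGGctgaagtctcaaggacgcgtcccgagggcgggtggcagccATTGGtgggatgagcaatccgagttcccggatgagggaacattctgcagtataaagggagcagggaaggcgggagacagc
H2AFJ: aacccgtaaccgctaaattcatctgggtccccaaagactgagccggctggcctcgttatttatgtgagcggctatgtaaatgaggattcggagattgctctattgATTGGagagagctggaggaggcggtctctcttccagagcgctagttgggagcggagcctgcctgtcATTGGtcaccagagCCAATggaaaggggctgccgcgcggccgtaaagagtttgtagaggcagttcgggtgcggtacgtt

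In H2AFX the CCAAT letters occur 4 times, beginning 240, 153, 81 and 67 bases before the start, and TTTGAA once, at 164. H2AFZ holds them 3 times, at 182, 125 and 80, and H2AFJ 3 times, at 145, 79 and 65. Of the 9 genes with an entry, 6 had at least 1 CCAAT in the first listed window and 5 had 3 or more (the 3 shown, H2AFV and H3F3B). Among 27305 promoter windows of the same length, 33.0% had at least 1 and 3.09% had 3 or more. TTTGAA was in 1 of the 9 and in 13.6% of all windows. The E2F letters TTTCCCGC, TTTCGCGC, TTTGCCGC and TTTGGCGC were searched on both strands as well and were in none of the 9, and in 2.79% of all windows. These are matches of letters. H2AFJ and H2AFZ have the same number of CCAAT matches, and whether any of the letters bears on the fold changes was not tested.

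H2AFJ encodes H2A.J, a variant that differs from canonical H2A mainly at its C-terminal tail and that accumulates in senescent fibroblasts. Its bright probe (NM_177925, chromosome 12 of hg18 from 14819082 to 14819141) had signals of 2255, 2407 and 2987 from control to the high dose. The low dose did not differ from control beyond the spot error (0.03 ± 0.06), and the high dose was higher (0.66 ± 0.07). Under the other settings this value at the high dose ranged from 0.37 to 0.72. H2AFJ was at the 84.0 percentile of all genes in that comparison. The second probe of H2AFJ was not well above background on any array, with signals of 5.05 to 6.43, and gave no fold change.

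The macroH2A genes H2AFY and H2AFY2 encode H2A variants with a large macro domain. H2AFY (NM_138610, probe on chromosome 5 of hg18 from 134698624 to 134698683) had signals of 9225, 10218 and 4844. Its low dose was within 2 SD of control (0.09 ± 0.06), though past 2 SD without scaling (0.15), and its high dose was 1.60-fold lower (-0.68 ± 0.06). H2AFY2 (NM_018649, chromosome 10 of hg18 from 71541751 to 71541810) was a dimmer probe, with signals of 329, 378 and 259. Neither dose of H2AFY2 differed from control by more than 2 SD (0.14 ± 0.08 and -0.10 ± 0.09). That depended on the scaling, since under other scalings the values reached 0.20 and -0.39, past 2 SD. H2AFY lay below H2AFY2 by 0.58 ± 0.11 on the log2 scale at the high dose, so these related genes changed unequally there, whatever the scaling.

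H3F3A and H3F3B encode the same H3.3 protein from separate genes. The brightest probe of each gene is shown, since its values stand for the gene and near-identical copies can share hybridization. The H3F3A probe is on chromosome 1 of hg18 from 224325690 to 224325749 and the H3F3B probe on chromosome 17 of hg18 from 71286507 to 71286566.
H3F3A: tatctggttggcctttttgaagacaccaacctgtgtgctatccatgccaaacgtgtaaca
H3F3B: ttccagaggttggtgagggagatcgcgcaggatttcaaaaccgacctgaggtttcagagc

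No pair among the 15 probes of the variants shared more than 10 bases in a row. The files nevertheless list a processed copy of H3F3A (H3P6) under all 3 of its probes, and H3-5 under the bright H3F3B probe, so their signals can include those transcripts. The 3 probes of H3F3A had signals of 54433, 38134 and 18843 without etoposide, 48936, 35293 and 17906 at 10 μM, and 34866, 23669 and 11185 at 100 μM. All 3 had the same order, control above the low dose above the high dose. Their log2 fold changes over control were -0.22 to -0.14 at 10 μM and -0.50 to -0.39 at 100 μM. The bright probe of H3F3B gave 16975, 17060 and 11595, which is -0.05 ± 0.06 at 10 μM and -0.30 ± 0.06 at 100 μM, and the first of these was at 0.01 without scaling and at -0.50 with the median over both probes of the gene. The H3F3A and H3F3B values did not differ by more than 2 SD at either dose, with differences of -0.16 ± 0.09 and -0.09 ± 0.09.

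A dimmer H3F3B probe (chromosome 17 of hg18 from 71284462 to 71284521) gave other values. Its signals were 441, 240 and 209. It was below control 1.92-fold at 10 μM (-0.94 ± 0.09) and 1.78-fold at 100 μM (-0.83 ± 0.09). The bright and the dim probe of H3F3B thus differed by 0.89 ± 0.11 at the low dose and by 0.53 ± 0.11 at the high dose. The files annotate both with the same accession (NM_005324), and which transcripts the dim probe reads was not tested.

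Of the linker histones, H1F0 encodes H1.0, which is typical of differentiated and non-dividing cells, and H1FX encodes H1.10. H1F0 (NM_005318, chromosome 22 of hg18 from 36533093 to 36533152) had signals of 7945, 4407 and 4384 in the same order. Both treated arrays were below control, 1.88-fold at the low dose (-0.91 ± 0.06, the 2.05 percentile of all genes) and 1.52-fold at the high dose (-0.61 ± 0.06). No other variant was lower than control by more than 1.5-fold at the low dose by its brightest probe. The comparison of the doses for H1F0 depended on the scaling, at -0.30 ± 0.06 after scaling and 0.01 without it. H1FX (NM_006026, chromosome 3 of hg18 from 130517156 to 130517215) had signals of 804, 769 and 448. It was within 2 SD of control at the low dose (-0.13 ± 0.07), though past 2 SD under median scaling (-0.15), and 1.51-fold lower at the high dose (-0.59 ± 0.07). The linker histones differed from each other by 0.79 ± 0.09 at 10 μM and by 0.01 ± 0.10 at 100 μM.

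The order of the log2 fold changes at the high dose, from lowest to highest, was H2AFZ, H2AFX, H2AFV, H2AFY, H1F0, H1FX, H3F3A, H3F3B, H2AFY2 and H2AFJ. H2AFZ and H2AFX were within 2 SD of each other (difference 0.14 ± 0.09), and so were H1F0 and H1FX and the H3.3 genes. The scaling moved the median of all genes at the high dose from 0.10 to -0.15 when none was applied and to -0.19 under median scaling, so the values are also given relative to that median. On this footing H2AFZ was at -1.46, H2AFX at -1.32, H2AFV at -1.0, H2AFY at -0.78, H1F0 at -0.70, H1FX at -0.69, H3F3A at -0.49, H3F3B at -0.40, H2AFY2 at -0.19 and H2AFJ at 0.56. The sign of each variant at the high dose was the same under all 12 other settings that give a fold change. Among these, the filters on dim probes and the deposited series values could not have changed it.

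**Figure D3:**
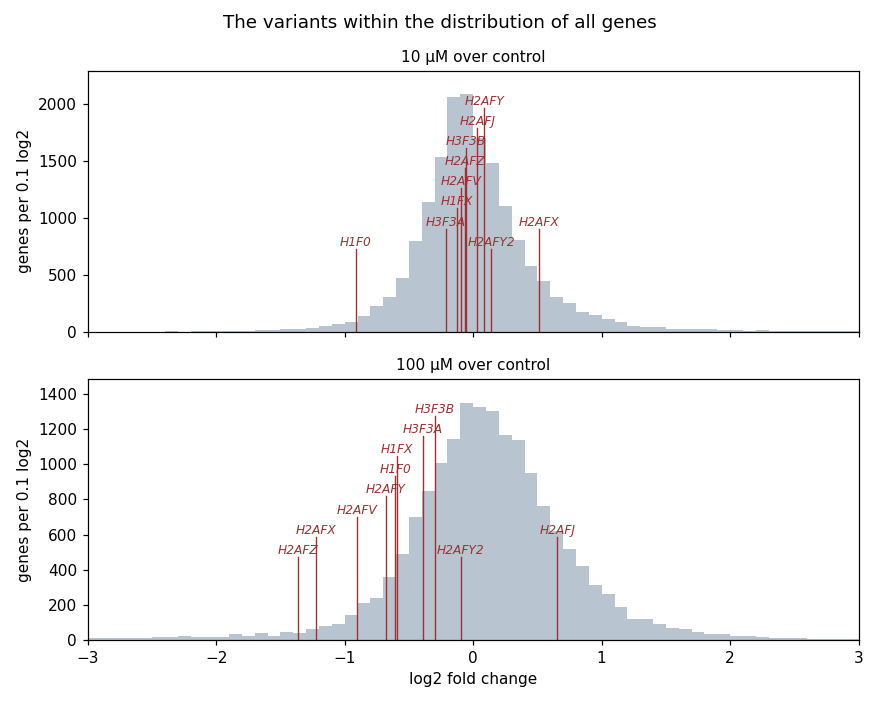
Number of genes per 0.1 of log2 fold change for all genes tested (bars, drawn from -3 to 3), with the 10 variants marked by their brightest probes at the low dose (top) and high dose (bottom). At the low dose H1F0 and H2AFX stand away from the centre, and at the high dose all variants but H2AFJ lie below 0.

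Set directly against each other, the doses differed by more than 2 SD between spots for all 10 variants by their brightest probes, with SDs of 0.06 to 0.08. The dim H3F3B probe was on the other side of 0 from the bright one and within 2 SD, at -0.11 ± 0.09. The quartiles of all 16688 genes were -0.39 and 0.16, and how many of those genes passed 2 SD was not counted. For H1F0 and H3F3A the difference did not pass 2 SD under every scaling, with values of up to 0.01 and down to 0.10. After H2AFX (3.33-fold) and H2AFZ (2.45-fold), the variants higher at 10 μM than at 100 μM were H2AFV (1.75-fold), H2AFY (1.70-fold), H1FX (1.38-fold), H3F3B (1.19-fold), H2AFY2 (1.18-fold) and H3F3A (1.13-fold). H2AFJ was 1.54-fold lower at 10 μM and H1F0 1.23-fold lower. H2AFX and H2AFJ were thus at opposite ends of the set, with log2 fold changes between the doses that differed by 2.36 ± 0.09. H2AFV and H2AFY were also past 2-fold in this comparison without scaling and with median scaling, and the low values of H3F3A, H3F3B and H2AFY2 are smaller than the shift of 0.31 that leaving out the scaling gave the median of all genes.

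By their changes over control at both doses, the genes most like H2AFX among 12047 with a RefSeq mRNA accession and signal on every array were CEP152 (distance 0.03 on the log2 scale), CENPQ (0.05) and XRCC2 (0.06). Those most like H2AFZ were PRPS2 (0.02), GGH (0.05) and NASP (0.09). Likeness rests on 2 values per gene, and 7 genes lay within 0.1 of H2AFX and 6 within 0.1 of H2AFZ.

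Histone chaperones and remodelers carry histones, the variants among them, to and from chromatin. The list used here is not limited to factors of the 10 variants, and it includes HJURP and CHAF1A, which serve other histones. Of its 35 genes, 1 was higher and 0 were lower past 2-fold at the low dose. At the high dose 0 were higher and 11 lower, and the medians at the low and high dose were -0.04 and -0.57. As shares these are 2.86% and 0% at 10 μM, beside 3.38% and 1.61% of all genes, and 0% and 31.4% at 100 μM, beside 6.84% and 3.71%. The count at the low dose was 3 without scaling and 2 with spike-in scaling. ASF1B, a chaperone of H3 and H4, was highest at the low dose (2.36-fold over control), followed by CHAF1A of the replication-coupled assembly factor CAF-1 (1.95-fold), and INO80 and NPM1 were lowest, by 1.5-fold and 1.49-fold. At the high dose HJURP, the chaperone of CENP-A, was 5.20-fold lower and CHAF1A 3.37-fold lower, while ZNHIT1 of the H2A.Z exchange complex (1.33-fold) and CABIN1 of the HIRA complex (1.27-fold) were the highest. The dedicated factors of the variants, chosen after their values were seen, had the following log2 fold changes at the high dose. HIRA, which deposits H3.3, was at -0.29 ± 0.07 and ANP32E, which removes H2A.Z, at -1.23 ± 0.08. DAXX, an H3.3 chaperone at repeats, at -0.14 ± 0.07, and SRCAP, which inserts H2A.Z, at 0.33 ± 0.25 with signals of 43.9 and 41.5 near background, were within 2 SD of control. For DAXX this was at the edge and depended on the scaling. Leaving the scaling out moves each measured value at the high dose by -0.25, which takes DAXX past 2 SD.

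The list for H2A.X signaling holds kinases, readers and phosphatases of the phosphorylation mark and also other factors, BRCA1 among them. It numbered 24 genes, of which 23 gave a fold change. At the low dose 2 of them (8.70%, beside 3.38% of all genes) were more than 2-fold higher and 0 lower, and with normexp background correction 1 was past 2-fold. PPM1D, a phosphatase that reverses the mark, was 3.08-fold higher and BRCA1 2.09-fold higher, whereas NBN was 1.74-fold and ATM 1.59-fold lower. At the high dose 0 were higher and 1 (4.35%, beside 3.71% of all genes) was lower, which was BRCA1 at 3.69-fold. The count was 3 without scaling and 4 with median scaling, and PRKDC (the catalytic subunit of DNA-PK) was next at 1.76-fold lower. EYA1 (1.61-fold) and PPM1D (1.47-fold) were the highest there. The clustered histone genes, for comparison, had medians of -0.36 at 10 μM and -1.06 at 100 μM. At the high dose 31 of 60 tested were past 2-fold lower (51.7%, beside 3.71% of all genes) and 3 higher (5%, beside 6.84%). Of the higher genes, HIST2H2AA4 was measured on both arrays, 3.96-fold over control at signals of 355 in control cells and 1182 at 100 μM. HIST1H1A and HIST1H2BA gave only bounds, from control signals of 8.50 and 4.30 not well above background. Labeling in this kit starts from poly(A), which most mRNAs of the clustered genes lack, so their signals cover only part of those transcripts.

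**Figure D4:**
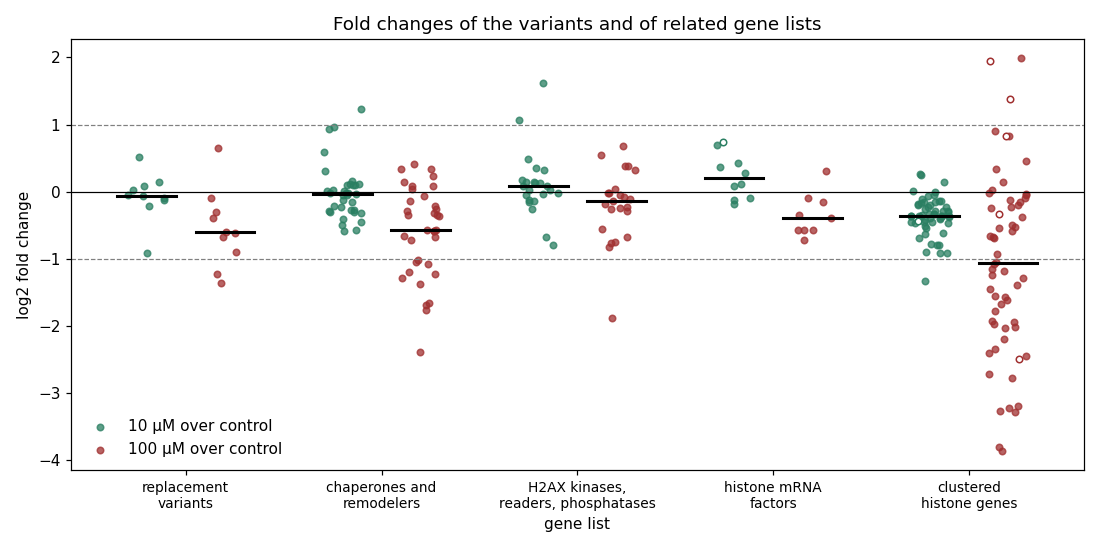
Log2 fold change over control of each gene in the replacement variants and in related lists at the low dose (green) and the high dose (red); black bars are medians, open circles are bounds and dashed lines mark 2-fold. The median of the variants is -0.06 at 10 μM and -0.60 at 100 μM, beside -0.36 and -1.06 for the clustered histone genes. The list labeled for H2AX also holds other signaling factors such as BRCA1.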

How the data were processed

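RNA of HepG2 cells was labeled with Cy3 and hybridized to Agilent whole human genome arrays, 1 per condition. The authors deposited Feature Extraction (version 10.7.3.1) output, in which the intensity of each spot had been background-subtracted and detrended within the array, and a series table equal to it for all 44495 spots of each array (relative tolerance 1e-06). No scaling between arrays had been applied. Probe positions are on hg18, per the file headers.

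Outlier spots were left out, log2 signals averaged per probe and set relative to the 75th percentile over 34127 probes, each counted once. A gene was represented by its brightest probe. A fold change needed the brighter signal to be well above background; a dimmer signal below it was raised to the lowest signal above background of its array, which gives a bound. Past the threshold means at least 2-fold. Spot SDs came from the 50 repeated probes nearest in signal.

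No test was possible with 1 array per condition. The members and lists were chosen with earlier results of these data known. Names in the text are all members and a choice from the 2 highest and 2 lowest genes of each list measured on both arrays, the 3 genes most like each member past 2-fold, and 4 factors chosen after their values were seen. The cell type markers are named apart from this rule, as are HIST1H1A, HIST1H2BA and HIST3H3. Alternatives covered scaling, background correction (normexp, offset 50), filters, probes and the threshold. The steps were tested on simulated data. Python 3.11.15, pandas 2.3.3, numpy 2.4.6, R 4.3.3 and limma 3.58.1 were used.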

Additional observations from a re-analysis of the deposited data

Results flagged for a closer look

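H2AFX was singled out because its change over control had opposite directions at the doses, each by more than 2 SD between spots, with a log2 fold change of 0.51 at 10 μM and -1.22 at 100 μM. The difference was not tested, since each dose is 1 array. Over the other settings the value at the low dose ranged from 0.49 to 0.57 and that at the high dose from -1.51 to -1.16.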

How the results depend on the processing

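Across 12 other settings, 360 fold changes of single variants were recomputed, of which 271 moved by less than the SD between spots and 89 by more. Part of the 271 was fixed in advance. The deposited series values equal the signals used here and could move nothing. Filters on dim probes could not move the variants either, since all 10 were measured on every array. The median over probes was fixed for the 6 genes with 1 probe. The sign differed in 3, which were H3F3B at the low dose without scaling and under spike-in scaling, and H1F0 between the doses without scaling. Variants past the threshold numbered 1, 7 and 5 at 1.5-fold, for the low dose, the high dose and the comparison of the doses, against 0, 2 and 2 at 2-fold. The shares of all genes past 1.5-fold were not counted, so these numbers cannot be set against them. At the high dose the quartiles of all genes were -0.24 and 0.45 on the log2 scale. Between the doses 4 passed 2-fold without scaling and 4 under median scaling, H2AFV and H2AFY being added. Those settings raised the median of all genes by 0.31 and 0.27, and the share of all genes past 2-fold under them was not counted. The median of the variants at the high dose was -0.85 with unscaled arrays, -0.89 when they were scaled to the median and -0.77 with spike-in scaling. Between the doses it was 0.36, and 0.67, 0.62 and 0.58 under the same settings and 0.28 with the percentile over all spots. These follow from the construction of the settings, which shift whole arrays. For the other lists, 289 of 375 values stayed within 1 SD, or within 1.5-fold for counts, and 86 did not. No paired analysis was possible because there was 1 array for each dose. Low signals limit precision, with a median SD between spots of 0.23 to 0.25 at signals of 20 to 50 and 0.05 at 300 to 1000.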

Other observations

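Other variant histones outside the 10 genes were mostly dim, and of 14 on the array 6 gave a measured fold change in each comparison. HIST3H3 was bright, with signals of 33686, 33548 and 23034 from control to the high dose, and was 1.23-fold below control at the high dose. CENPA, which marks centromeres, had signals of 664, 588 and 62 from control to the high dose, which put the low dose 1.18-fold and the high dose 9.0-fold below control. H1FNT, a testis linker histone, was 1.92-fold higher at the high dose at signals of 93.2 and 151. HIST1H2AA was 2.07-fold lower there at low signals, 76.8 in control cells and 31.3 at the high dose.

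Factors of histone transcription and stem-loop mRNA processing had 0 of 10 past 2-fold at the low dose and 0 of 9 at 100 μM. Of all genes, 3.38% were higher and 1.61% lower by that much at the low dose, and 6.84% and 3.71% at the high dose. ERI1, an exonuclease that acts on the stem-loop, was 1.62-fold higher at the low dose, and CASP8AP2 was 1.34-fold higher at the low dose and 1.65-fold lower at the high dose.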
